A study of Rattus norvegicus with 6 samples.

Results

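The transgelins and calponins are a family of small actin-binding proteins, encoded in the rat by Tagln, Tagln2, Tagln3, Cnn1, Cnn2 and Cnn3. The 6 genes were chosen by name, with their change under fibrinogen already known. Of these, 5 were measured among the 13355 genes tested, each by a single probe set; Cnn2 was not analysed here. Because values of this contrast guided the choice, the levels and changes of the members are given as a description, with no test of their own.

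Every member carries a calponin homology domain near its start, and the calponins carry several short calponin repeats after it. The proteins bind actin filaments, and calponins also inhibit the ATPase activity of myosin on actin. Tagln and Cnn1 are classical markers of smooth muscle, where serum response factor (SRF) and its co-activators myocardin and the MRTF proteins drive them, and both are also induced by TGF-beta in other cells. Tagln2 and Cnn3 are more widely expressed, and Tagln3 is mainly neuronal.

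Affymetrix rat gene arrays were hybridised with RNA of primary rat oligodendrocyte progenitor cells (OPCs), the glial precursors of the cells that make myelin. The control group was 3 arrays of unstimulated OPCs and the fibrinogen group 3 arrays of OPCs given fibrinogen, the clotting protein of plasma, for 48 h. In both groups the cells came from pups of postnatal day 1 to 2 and had recovered for 2 days in medium with PDGF and NT3. Strain and sex are not given in the labels. Fibrinogen was given in differentiation medium, and the medium of the controls is not stated. Nothing says whether the 3 samples of a group were separate cultures or animals, so errors cannot be read as the spread between either. The series asks whether fibrinogen activates BMP signaling in OPCs and blocks myelin repair.

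Values are log2 expression as deposited, so a difference of 1 is a doubling. The array medians lay between 5.78 and 5.84, and no detection call accompanies the values. The 7 measured of 10 oligodendrocyte lineage markers all lay above the median probe of the control arrays (5.78), with a mean level of 10.42 to 10.47 on control and 10.53 to 10.56 on fibrinogen arrays. Of the 7, the progenitor genes Cspg4, Pdgfra and Olig1 rose by 0.63, 0.58 and 0.46 on the log2 scale, the myelin genes Mbp and Cnp fell by 0.40 and 0.39, and Gpr17 and Sox10 did not pass (limma, adjusted p under 0.05). Over all genes, 4.16% were called higher and 3.00% lower. In these bulk cultures, a change in the number of cells of a type and a change in RNA per cell cannot be told apart.

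Among the transgelins, Tagln2 and Tagln were higher with fibrinogen on every array and Tagln3 was not clearly so. Tagln2, the widely expressed transgelin, stood at 6.65, 7.25 and 7.16 on control arrays 1, 2 and 3 and at 9.35, 9.29 and 9.52 on fibrinogen arrays 1, 2 and 3. The lowest fibrinogen array was 2.04 above the highest control array on the log2 scale, and control 1 was the lowest of all. The group means were 7.02 ± 0.32 and 9.39 ± 0.12 (SD, n = 3), a 5.16-fold difference (log2 fold change 2.37, SE 0.16). With the 13355 genes ordered from the largest rise to the largest fall, Tagln2 ranked 1.

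Tagln, the smooth muscle transgelin that binds and bundles actin filaments, read 7.20, 6.81 and 6.81 on the control arrays and 8.09, 8.32 and 8.05 on the fibrinogen arrays. The groups were 0.85 apart at their nearest, and control 1 was here the highest control. The means of 6.94 ± 0.23 and 8.15 ± 0.15 (SD, n = 3) differed 2.32-fold (log2 fold change 1.21, SE 0.13), a rise that ranked 16 among all genes. Control 1 thus stood lowest for Tagln2 and highest for Tagln. Without that array the log2 fold change was 2.18 for Tagln2 and 1.34 for Tagln.

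Tagln3, the neuronal transgelin, read 5.81, 6.23 and 6.06 on control arrays and 6.56, 6.23 and 6.28 on fibrinogen arrays. The groups met: control 2 and fibrinogen 2 had the same value. The means were 6.03 ± 0.21 and 6.36 ± 0.18 (SD, n = 3), and the log2 fold change was 0.32 (SE 0.14, 95% interval 0.004 to 0.64), between 0.21 and 0.42 with any 1 array left out. Neuron markers, 14 of 14 measured, had a mean level of 7.19 to 7.36 on control and 7.24 to 7.29 on fibrinogen arrays. Of these, 3 rose and 2 fell (limma, adjusted p under 0.05), where 4.16% of all genes were called higher and 3.00% lower. The part of the neuron markers in the value of Tagln3 was not tested.

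Of the calponins, Cnn1 was higher with fibrinogen and Cnn3 differed little. Cnn1, the calponin of smooth muscle, read 5.43, 5.15 and 4.94 on control arrays and 6.06, 6.32 and 6.75 on fibrinogen arrays. The groups did not overlap and were 0.63 apart at their nearest, with the widest spread within the fibrinogen group of any member. The means were 5.17 ± 0.25 and 6.38 ± 0.35 (SD, n = 3), a 2.30-fold difference (log2 fold change 1.20, SE 0.19). With all genes ordered from the largest rise to the largest fall, Cnn1 ranked 17. The control level of Cnn1 lay below the median probe of the control arrays, as that of no other measured member did. RMA, which is named among the processing tools, can compress the changes of such dim probes.

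Cnn3, the calponin found in many non-muscle cells and in brain, read 9.96, 10.05 and 9.94 on control arrays and 10.07, 10.01 and 10.04 on fibrinogen arrays. The values interleaved and were the least variable of the family. The means were 9.98 ± 0.06 and 10.04 ± 0.03 (SD, n = 3), a log2 fold change of 0.06 (SE 0.07, 95% interval -0.11 to 0.23). After median-centring of the arrays the value was -0.02, so it has no settled sign.

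**Figure D1:**
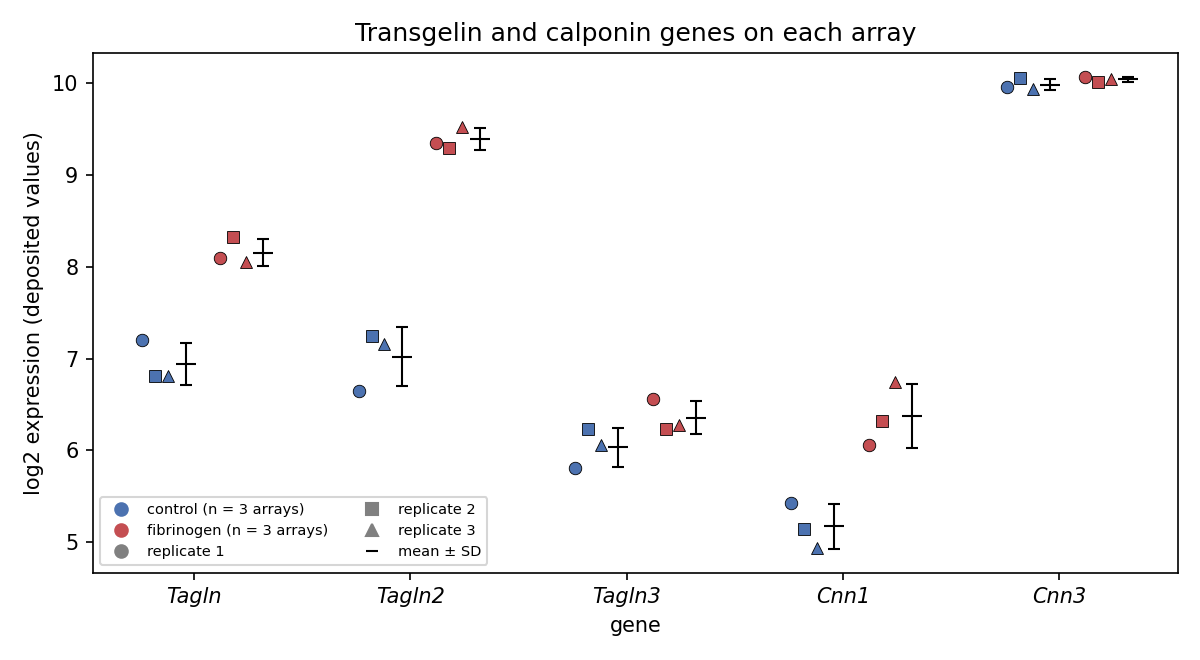
Log2 expression (y axis, deposited values) of the 5 measured genes (x axis) on 3 control arrays (blue) and 3 fibrinogen arrays (red); symbols mark the replicate number and black bars the mean ± SD. The groups are apart for Tagln, Tagln2 and Cnn1 and meet or interleave for Tagln3 and Cnn3; heights of different genes come from different probes and are not comparable.

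In the fit over all genes, 3 of the 5 measured members (Tagln, Tagln2 and Cnn1) were called higher at an adjusted p under 0.05, where 4.16% of all genes were called higher and 7.16% in either direction. Their groups were also apart, as were those of 27.0% of all genes, 15.0% with fibrinogen higher. Since the members were chosen with this contrast known, these counts are not evidence about the family. The calls over all genes split into 555 higher and 401 lower, and into 394 higher and 618 lower after median-centring of the arrays, a step that shifts the middle of the log2 fold changes over all genes from 0.003 to -0.073; Tagln, Tagln2 and Cnn1 remained called, at 1.14, 2.29 and 1.13 on the log2 scale. Tagln and Tagln2 kept their call without any 1 array. Cnn1 lost its call without fibrinogen 2, with a log2 fold change of 1.23, and with the unmoderated test.

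**Figure D2:**
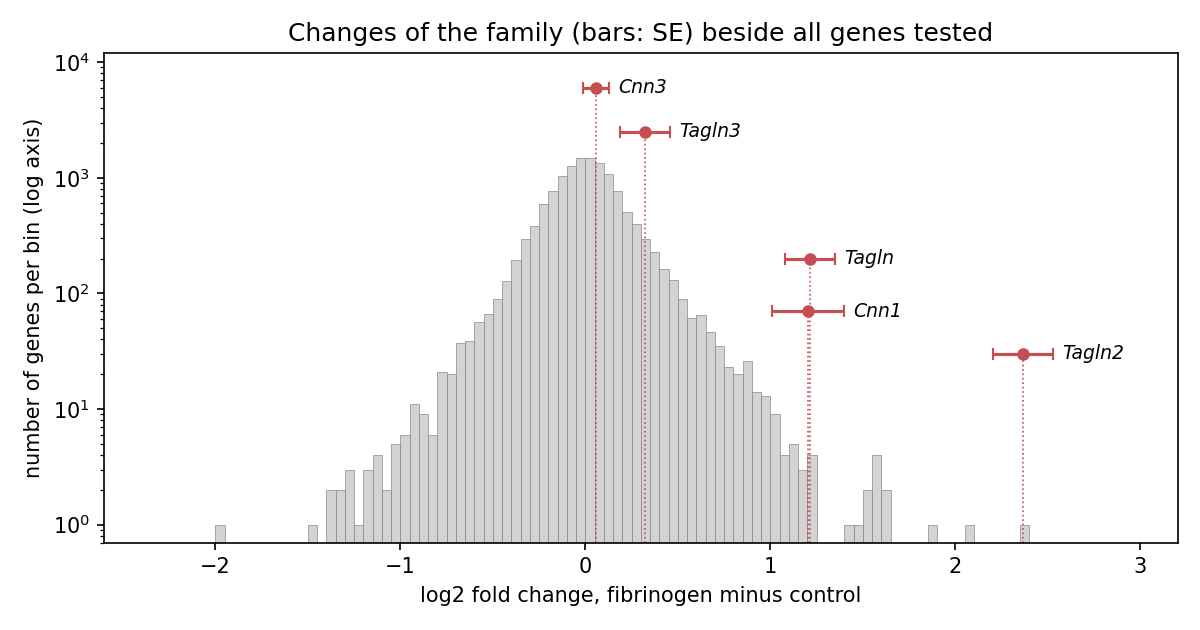
Histogram of the log2 fold change (x axis, fibrinogen minus control) of the 13355 genes tested in bins on a log count axis (y axis), with the 5 members as red points and their SE as bars; the height of a point has no meaning. Tagln2 is the rightmost gene at 2.37, Tagln and Cnn1 share the right tail at 1.21 and 1.20, and Tagln3 and Cnn3 lie within the bulk at 0.32 and 0.06.

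Tagln and Cnn1 had changes of nearly the same size. Their fibrinogen arrays ran differently: fibrinogen 3 was the lowest for Tagln and the highest for Cnn1. The root mean square distance between their mean-centred log2 profiles over the 6 arrays was 0.25, against 0.67 between Tagln and Tagln2 and 0.68 between Tagln2 and Cnn1. The smallest distance in the family, 0.19, joined Tagln3 and Cnn3, the pair with little change. These distances follow the size of the change and come from the same arrays, so they describe and do not test likeness.

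RefSeq promoter windows (GRCr8, 250 bases before to 50 after the start) matched 5 of the 6 members: Tagln2, Tagln3, Cnn1, Cnn2 and Cnn3. The upstream parts for Tagln2 (chr13:87499158-87499349, plus strand) and Cnn1 (chr8:28908187-28908436, plus strand) are shown because both genes were higher with fibrinogen, and that for Cnn3 (chr2:212203411-212203660, plus strand) because its groups interleaved. Each lies before the outermost start of the gene and is written 5′ to 3′, and capitals mark matches on either strand to the motifs described after them.
Tagln2: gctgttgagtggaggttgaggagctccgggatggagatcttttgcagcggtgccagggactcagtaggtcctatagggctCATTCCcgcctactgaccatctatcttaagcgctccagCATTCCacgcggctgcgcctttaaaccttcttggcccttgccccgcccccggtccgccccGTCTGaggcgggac
Cnn1: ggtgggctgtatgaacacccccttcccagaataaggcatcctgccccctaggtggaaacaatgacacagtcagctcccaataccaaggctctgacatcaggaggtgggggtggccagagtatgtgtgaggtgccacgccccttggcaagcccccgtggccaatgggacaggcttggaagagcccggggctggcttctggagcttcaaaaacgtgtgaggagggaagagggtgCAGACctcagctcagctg
Cnn3: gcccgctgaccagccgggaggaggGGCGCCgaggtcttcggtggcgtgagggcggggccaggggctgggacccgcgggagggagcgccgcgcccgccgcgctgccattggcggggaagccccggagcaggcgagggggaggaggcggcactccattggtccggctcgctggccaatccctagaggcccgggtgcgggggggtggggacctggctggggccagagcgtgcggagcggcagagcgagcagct
The motifs searched on both strands were the CArG box, which SRF binds; CATTCC, the MCAT element of the TEAD factors; CAGAC, a SMAD-binding motif; and GGCGCC, a GC-rich motif of the SMAD proteins of the BMP pathway. Matches to different motifs did not overlap in these windows.

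CATTCC occurred in the Tagln2 window at positions -170 and -132 from the start and in no other member's window; 14.2% of the 33469 windows in the table hold it. The CArG box, in 1.64% of windows, matched only in Cnn2, as CCTTATAAGG from position -71, and that gene was not analysed here. CAGAC, in 50.1% of windows, matched in Tagln2 at -72, in Cnn1 at -18 and 13, in Cnn2 and in both windows of Tagln3. GGCGCC, in 11% of windows, matched only in Cnn3, at -226. Tagln had no window here and was not searched for these motifs. A match describes these letters and a missing match says only that they are not in this window.

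Of 29 other smooth muscle contractile and SRF-regulated genes, a list that also holds Srf and its co-activators, 22 were measured. Of these, 2 rose, 1 fell and 19 did not pass (limma, adjusted p under 0.05), where 7.16% of all genes were called. At an unadjusted p under 0.05 in limma, 7 were higher and 4 lower, against 1566 and 1249 of the 13355 genes tested. The groups were apart for 11 of the 22, against 27.0% of all genes, and the median log2 fold change was 0.00, against 0.003 over all genes. Pdlim7, a PDZ and LIM protein of actin filaments, read 7.43, 7.66 and 7.55 on control arrays and 8.13, 8.18 and 8.18 on fibrinogen arrays. It rose by 0.62 on the log2 scale (SE 0.08, limma adjusted p = 0.00748), with groups apart and the fibrinogen arrays nearly equal. Csrp2, a LIM protein of smooth muscle, rose by 0.44 (SE 0.08, limma adjusted p = 0.0228), and Fhl2, a LIM co-factor that binds SRF, fell by 0.41 (SE 0.09, limma adjusted p = 0.0418). With the unmoderated test Csrp2 and Fhl2 lost their calls. The list had 1 call, that of Pdlim7, without control 1, without control 3 or without fibrinogen 2.

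Of SRF and its co-activators of the contractile program, Srf and Myocd were measured and neither was called. Srf, the transcription factor of the program, read 7.78, 7.52 and 7.47 on control arrays and 7.40, 7.17 and 7.26 on fibrinogen arrays, with every fibrinogen array lower, but its log2 fold change of -0.31 (95% interval -0.57 to -0.06) was not called (limma adjusted p = 0.154). Myocd, the muscle co-activator myocardin, had a log2 fold change of 0.06 (95% interval -0.43 to 0.55, limma adjusted p = 0.909), from a control level below the median probe. Myh11, the smooth muscle myosin heavy chain, was also below the median probe, at -0.11 (95% interval -0.41 to 0.19, limma adjusted p = 0.696). Mrtfa, Mrtfb and Acta2 were not analysed here. Whether Myh11 differed from Tagln and Cnn1 in its change was not tested.

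Among actins and tropomyosins, the filament proteins that transgelins and calponins sit on, 9 of 10 were measured, 1 rose and 8 did not pass, where 4.16% of all genes were called higher. The median log2 fold change was 0.06, and the groups were apart for 4 of the 9, against 27.0% of all genes. Tpm1, a tropomyosin that lies along actin filaments, read 8.83, 8.85 and 8.71 on control arrays and 9.18, 9.24 and 9.24 on fibrinogen arrays, a rise of 0.42 on the log2 scale (SE 0.08, limma adjusted p = 0.0207). The other tropomyosins, chosen after their values were seen, had log2 fold changes of 0.33 for Tpm4, 0.40 for Tpm2 and 0.21 for Tpm3 and did not pass (limma adjusted p = 0.0502, 0.111 and 0.163), with groups apart for each of them. Actb, the cytoplasmic beta actin, was at 12.36, 12.44 and 12.44 on control arrays and 12.42, 12.43 and 12.49 on fibrinogen arrays, a log2 fold change of 0.03 (95% interval -0.13 to 0.20, limma adjusted p = 0.842). Tpm1 lost its call without control 3 and without any 1 fibrinogen array, which left the list with 0 calls (3 or 4 members at an unadjusted p under 0.05 in each).

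Of 39 other genes of proteins with a calponin homology domain, 30 were measured: 2 rose, 2 fell and 26 did not pass, where 4.16% of all genes were called higher and 3.00% lower. The median log2 fold change was -0.02, and the groups were apart for 9 of the 30, against 27.0% of all genes. The alpha-actinins Actn1 and Actn4, which cross-link actin filaments, went in opposite directions. Actn2, chosen after its value was seen, was at 0.03 (limma adjusted p = 0.882). The control level of Actn1 lay just below the median probe. Actn1 read 5.56, 5.96 and 5.80 on control arrays and 6.71, 6.83 and 6.62 on fibrinogen arrays and rose by 0.95 on the log2 scale (SE 0.12, limma adjusted p = 0.0055), whereas Actn4 went from 9.54, 9.60 and 9.43 to 9.14, 9.07 and 9.04 and fell by 0.44 (SE 0.08, limma adjusted p = 0.0214).

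The parvins, adaptors at focal adhesions that bind integrin-linked kinase, were called in both directions. Parva rose by 0.47 on the log2 scale (SE 0.10, limma adjusted p = 0.0429) and Parvb fell by 0.59 (SE 0.10, limma adjusted p = 0.0196), and Parvg, chosen after its value was seen, was at -0.11 (limma adjusted p = 0.536). Flna, the actin cross-linker filamin A, had a log2 fold change of -0.18 (95% interval -0.44 to 0.08, limma adjusted p = 0.427). Actn1 kept its call without any 1 array and lost it with the unmoderated test. Parva and Parvb lost their calls with the unmoderated test, without control 3 and without any 1 fibrinogen array, and Parva also without control 1. Actn4 lost its call without control 1, control 2 or any 1 fibrinogen array. The list had 2 calls without control 1 or control 3 and 1 call, that of Actn1, without any 1 fibrinogen array.

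**Figure D3:**
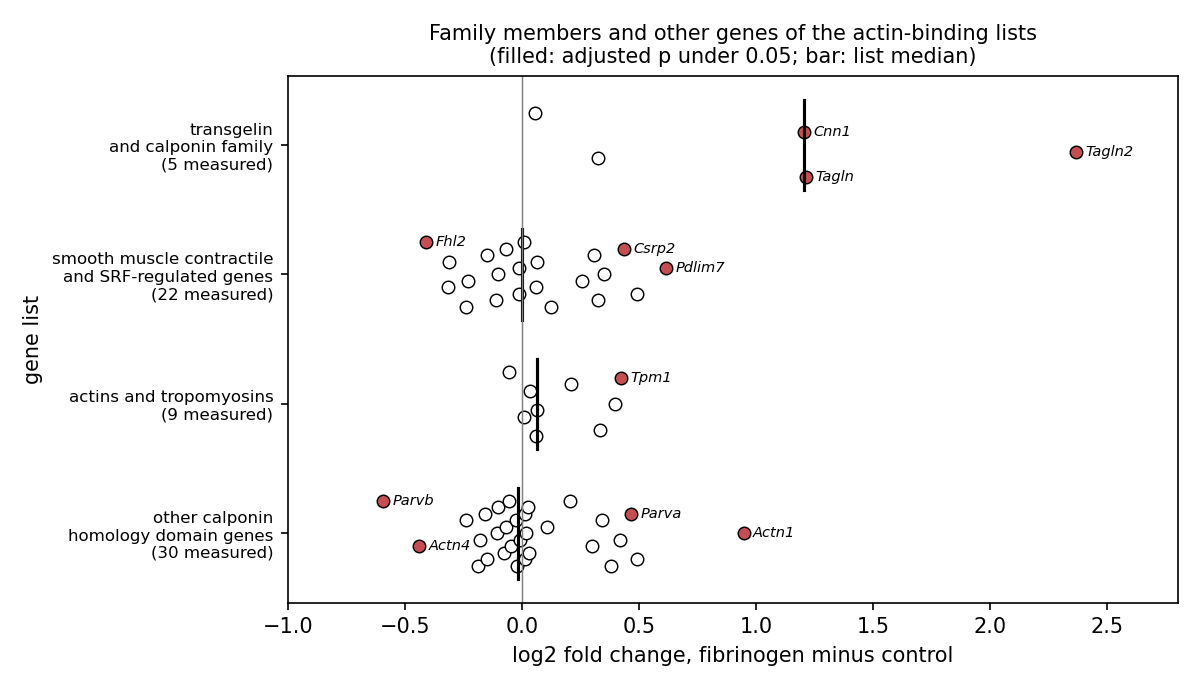
Log2 fold change (x axis, fibrinogen minus control) of each measured gene in the family and in 3 lists (y axis); filled points passed an adjusted p of 0.05 in limma and are named, open points did not, and black bars are list medians. The 3 lists centre on 0.00, 0.06 and -0.02 with 3, 1 and 4 genes called, and Actn1 at 0.95 is the largest change in them.

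Tagln and Cnn1 also mark smooth muscle cells, pericytes and some fibroblasts, so markers of these cells were read beside them. Of 12 smooth muscle and pericyte markers, 10 were measured and all 10 lay below the median probe on control arrays. None passed in limma (1 was higher and 0 lower at an unadjusted p under 0.05), and their mean level was 4.21 to 4.39 on control and 4.22 to 4.34 on fibrinogen arrays. Of 12 fibroblast and meningeal markers, 8 were measured and 6 lay below the median probe. None passed in limma (0 higher and 1 lower at an unadjusted p under 0.05), with mean levels of 5.05 to 5.16 and 4.94 to 5.06.

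Markers of other cell types stood as follows, where 4.16% of all genes were called higher and 3.00% lower. Of 10 measured astrocyte markers of 12, 4 rose and 6 did not pass, and 2 lay below the median probe; their mean level was 7.28 to 7.29 on control and 7.52 to 7.54 on fibrinogen arrays, and its part in the values of Tagln, Tagln2 and Cnn1 was not tested. Of 12 microglia markers, all measured, 2 fell and 10 did not pass. Of the 12, 10 lay below the median probe, among them both that fell (Itgam and Cd53). The mean levels were 4.59 to 4.68 on control and 4.36 to 4.46 on fibrinogen arrays. Of 7 measured endothelial markers of 10, all lay below the median probe and none passed in limma (0 at an unadjusted p under 0.05), with mean levels of 4.0 to 4.35 and 3.99 to 4.22.

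The genes whose profile lay nearest to a member were taken by the same root mean square distance, leaving out the family and uncharacterised loci. Nearest to Tagln2 were Lxn, the carboxypeptidase inhibitor latexin (distance 0.30), Bgn, the matrix proteoglycan biglycan (0.35), the homeobox gene Dbx2 (0.39) and Pmepa1, a feedback inhibitor of TGF-beta signaling (0.40). Lxn read 8.07, 8.14 and 8.46 on control arrays and 10.16, 10.04 and 10.09 on fibrinogen arrays, a log2 fold change of 1.87. As Tagln2 had the largest rise of all genes, any neighbour had to rise less. Bgn, Dbx2 and Pmepa1 had log2 fold changes of 2.09, 1.61 and 1.58.

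Tagln had closer neighbours: Lgals1, the galactoside-binding lectin galectin-1 (0.15), Ndrg2, a member of the NDRG family found in astrocytes (0.17), Hes1, a repressor downstream of Notch and BMP signaling (0.17), and Gdpd2, a glycerophosphodiester phosphodiesterase (0.19). Lgals1 read 8.05, 7.80 and 7.60 on control arrays and 8.79, 8.82 and 8.89 on fibrinogen arrays, a log2 fold change of 1.02; as for Tagln, control 1 was its highest control array. Ndrg2, Hes1 and Gdpd2 had log2 fold changes of 1.14, 1.06 and 1.12. All 8 genes were picked for their likeness on these 6 arrays.

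**Figure D4:**
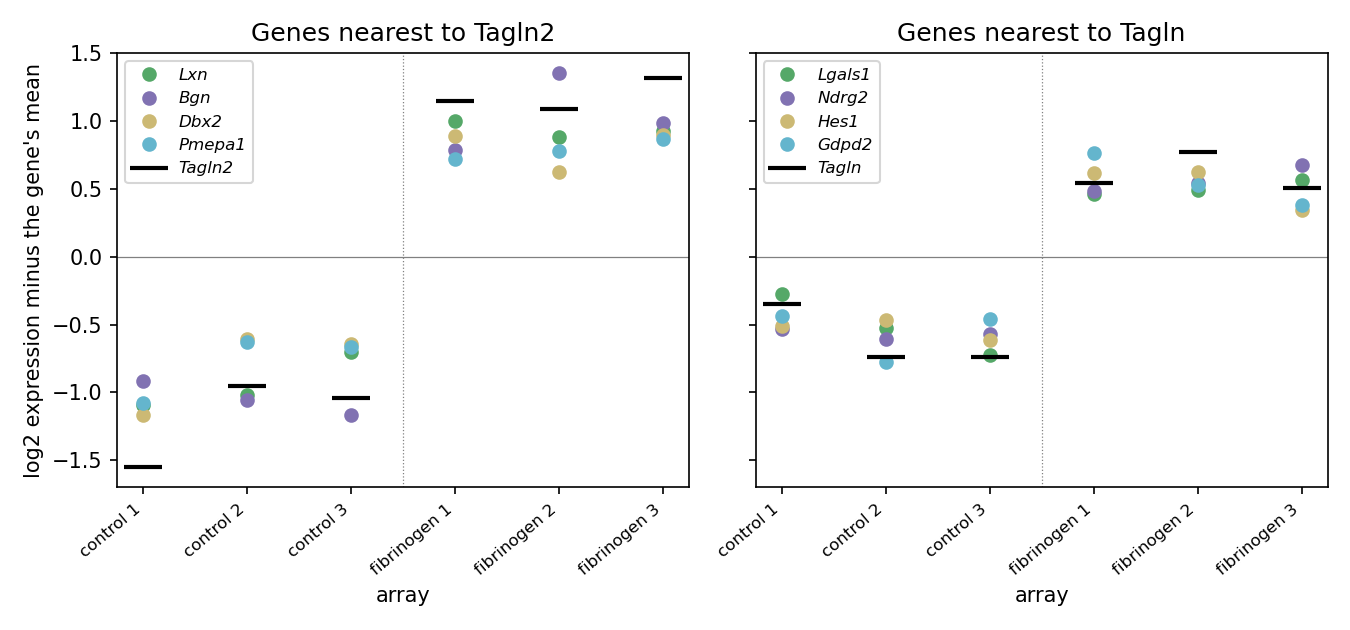
Mean-centred log2 expression (y axis) on each of the 6 arrays (x axis) for Tagln2 with its 4 nearest genes (left) and Tagln with its 4 nearest genes (right); black bars are the member and coloured points the neighbours. Tagln2 lies farther from 0 than its neighbours on control 1, fibrinogen 1 and fibrinogen 3, and the neighbours of Tagln scatter around it at distances of 0.15 to 0.19.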

How the data were processed

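The deposited table holds log2 expression values made by the authors, 1 column per array, rounded to 2 decimals. Per the submitters' processing notes the tools included RMA and limma; settings, annotation and build are not given in the sources used here. The table has 26312 probe rows, of which 23631 had values on every array and 2681 had none. The platform annotation gave 14083 of them a single symbol, 14059 of which matched a current gene number. The brightest probe on average stood for a gene, which gave 13355 genes. Fibrinogen was compared with control (n = 3 each) in limma 3.58.1 under R 4.3.3 (lmFit, then eBayes; two-sided; neither covariates nor a filter on dim probes) with Benjamini-Hochberg adjustment over all genes and a threshold of 0.05. The model was tested on simulated data. Each SE and 95% interval is moderated by eBayes, which draws on the variance of all genes. Precision is limited by how few arrays there are. The members and gene lists were chosen with earlier results of these data known. Named list genes were up to 6 called genes with the smallest p per list, and 9 genes regardless of value. Others are marked in the text as chosen after their values were seen. The 4 nearest genes to Tagln2 and to Tagln were named by distance. Alternatives were centring each array on its median, averaging probes, leaving out the dimmest 25% of genes, an intensity trend, an unmoderated test, array weights, a replicate block and leaving out each array.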

Additional observations from a re-analysis of the deposited data

How the results depend on the processing

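Of the 65 log2 fold changes of members computed under 13 alternatives, 64 stayed the same or moved by less than the spread between replicates. The exception was Cnn3, at -0.02 after median-centring of the arrays. Many of the 65 could not move. The intensity trend, the unmoderated test, the replicate block and the filter on dim genes leave a member's log2 fold change as it is. So does averaging probes, as each member has a single probe. The number of called members was 3, and 2 with the unmoderated test, the replicate block and without fibrinogen 2, each time without Cnn1. The count of all genes called was 956, and 1639 with an intensity trend, 500 with the unmoderated test and 358 to 592 with 1 array left out. For the contractile list (3 calls) it was 6 with the trend and 1 to 2 with 1 array left out. For actins and tropomyosins (1 call) it was 2 without the dimmest 25% of genes, 3 with the trend, 2 with array weights and 0 to 1 with 1 array left out. For the other calponin homology domain genes (4 calls) it was 1 with the unmoderated test and 1 to 3 with 1 array left out. The cause of these shifts was not tested; leaving out an array leaves fewer samples.

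Control and fibrinogen samples share replicate numbers, and the labels do not say whether the same number marks a pair. Deviations from the group means correlated over genes at 0.02, -0.14 and -0.07 for the same number. No sample correlated best with its own number. These values give no sign of pairing, which so few samples cannot exclude. With the replicate block, limma called 343 of all genes, 1 of the contractile genes, 0 of the actins and tropomyosins (3 at an unadjusted p under 0.05) and 1 of the other calponin homology domain genes.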
